A study of Homo sapiens with 12 samples.

Results

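TAp63 overexpression was compared with mock in 2 established human pancreatic cancer cell lines, and the question was for which genes the effect differed between them. For each gene, the change from mock to TAp63 in AsPC-1 was subtracted from the same change in PANC-1, so that a positive difference means a fall in AsPC-1 that was smaller or absent in PANC-1, or a larger rise in PANC-1. This difference uses 8 of the 12 RNA-seq libraries of the series: AsPC-1 mock, AsPC-1 with TAp63 overexpression, PANC-1 mock and PANC-1 with TAp63 overexpression, with 2 libraries each. The other 4 libraries, 2 of each line with deltaNp63 overexpression, share the model's estimate of spread and are used for values set side by side. AsPC-1 was established from the ascites of a patient with pancreatic adenocarcinoma, and PANC-1 from a primary pancreatic duct tumour. The labels call the replicates biological and give no vector, no selection, no time after gene transfer and no statement on clones. P-values therefore measure the spread between these libraries, whatever its source. Each line is a single model, so a difference between the lines is a difference between these cultures.

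TP63 encodes a transcription factor of the p53 family. Transcripts from its upstream start give TAp63, which carries the transactivation domain, and transcripts from an internal start give deltaNp63, which lacks it and is the usual form in basal and squamous epithelium. Of the 11 genes whose difference passed the test below, 9 were on lists of the interferon response. These lists were set with earlier results of these data known. In the interferon response, sensors of foreign nucleic acid induce interferon ligands, the ligands bind their receptors on the same or neighbouring cells, and the JAK kinases then phosphorylate STAT proteins. With IRF9 they form a complex that binds the interferon-stimulated response element (ISRE) in promoters and raises antiviral effectors, the ISG15 conjugation enzymes and the MHC class I presentation genes.

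Values were TPM, a relative abundance of transcripts scaled for length, summed per gene, and effects are differences in log2(TPM + 1), which understate the change of low genes. TPM does not carry the number of reads, and the depth of the libraries is unknown. The 8 libraries had between 12259 and 13138 genes at 1 TPM or more. In AsPC-1 the numbers were 12525 and 12468 with mock and 12259 and 12326 with TAp63, and the 10 most abundant transcripts held 7.49% and 7.21% of the TPM with mock and 8.02% and 7.75% with TAp63. In PANC-1 the same share lay between 8.20% and 8.28% in all 4 libraries. The median effect over the 14767 tested genes was -0.08 for AsPC-1 and 0 for PANC-1. The median difference between the lines was 0.09. Centring every library on its median lowers every difference by 0.14, and 10 of the 11 genes named below still passed after it. The epithelial keratins KRT8, KRT18 and KRT19 were each at 706.7 TPM or more in all 8 libraries, while EPCAM lay between 1256 and 1410 TPM in AsPC-1 and between 42.6 and 49.5 TPM in PANC-1. CDH1, which encodes E-cadherin, lay between 81.8 and 119.8 TPM in AsPC-1 and between 2.42 and 3.74 TPM in PANC-1. The leukocyte marker PTPRC reached at most 0.0102 TPM, and DCN, a fibroblast proteoglycan, at most 0.998 TPM. Some single markers of other cell types were present in 1 line only, with LUM between 176.7 and 232.8 TPM and LYZ between 102.4 and 129.6 TPM in AsPC-1, and COL1A1 between 84.1 and 111.4 TPM in PANC-1.

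Promoters of the genes past the threshold are shown here because their response element is short enough to be read. The RefSeq promoter table (GRCh38.p14) held 9 of the 11 genes described below, with 13 start sites. The 250 bases before each start were searched on both strands for the core of the ISRE, which reads GAAA, any 2 bases, GAAA, where overlapping matches were counted separately. The core was present in 7 of these 13 windows (53.8%) and in 1061 of 35116 windows over all promoters (3.02%). For the gamma-activated sequence, the element of the type II interferon response, which reads TTC, any 3 bases, GAA, the counts were 1 of 13 windows (7.69%) and 2306 of 35116 (6.57%). A match is a description of the letters and does not show binding. Each window below runs 5′ to 3′ in the direction of the gene, and capitals mark the ISRE core, which reads TTTC, any 2 bases, TTTC where it lies on the opposite strand. BST2 and IFI6 show several copies, IFNL2 is the ligand gene, PARP12 carries its copy next to the start, and CMPK2, which had the largest difference, holds no copy in any of its 3 windows.
BST2, chr19:17405631-17405880, minus strand: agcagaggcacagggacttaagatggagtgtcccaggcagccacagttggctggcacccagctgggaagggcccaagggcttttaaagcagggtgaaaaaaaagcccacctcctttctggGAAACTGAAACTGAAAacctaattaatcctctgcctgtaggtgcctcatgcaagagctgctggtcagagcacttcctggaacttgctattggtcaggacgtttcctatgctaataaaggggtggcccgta
IFI6, chr1:27672193-27672442, minus strand: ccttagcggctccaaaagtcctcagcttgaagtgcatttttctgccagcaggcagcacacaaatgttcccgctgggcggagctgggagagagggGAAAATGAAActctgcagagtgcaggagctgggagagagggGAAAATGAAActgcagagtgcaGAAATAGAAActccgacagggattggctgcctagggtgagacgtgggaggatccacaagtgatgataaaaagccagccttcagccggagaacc
IFNL2, chr19:39268146-39268395, plus strand: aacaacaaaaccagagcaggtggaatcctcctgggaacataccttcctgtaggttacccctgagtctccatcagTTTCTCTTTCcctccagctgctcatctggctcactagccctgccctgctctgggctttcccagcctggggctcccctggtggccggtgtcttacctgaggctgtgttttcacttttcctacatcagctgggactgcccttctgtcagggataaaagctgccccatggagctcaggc
PARP12, chr7:140062952-140063201, minus strand: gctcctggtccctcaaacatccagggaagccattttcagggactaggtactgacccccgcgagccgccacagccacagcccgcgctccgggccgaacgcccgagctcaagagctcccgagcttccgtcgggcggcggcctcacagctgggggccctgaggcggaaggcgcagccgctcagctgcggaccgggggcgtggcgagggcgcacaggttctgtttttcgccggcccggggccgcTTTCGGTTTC
CMPK2, chr2:6866636-6866885, minus strand: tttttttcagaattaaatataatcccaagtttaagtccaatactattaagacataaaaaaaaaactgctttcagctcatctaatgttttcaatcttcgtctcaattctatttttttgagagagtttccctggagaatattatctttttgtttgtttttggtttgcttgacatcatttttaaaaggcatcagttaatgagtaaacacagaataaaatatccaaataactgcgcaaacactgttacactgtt

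The copies in IFI6 began 156, 115 and 93 bases before the start, those in BST2 130 and 124 bases, that in IFNL2 176 bases and that in PARP12 10 bases before it. The CMPK2 window lies inside the gene model of RSAD2, which runs in the opposite direction. IFIT1 held copies 116 and 103 bases before its start, and both windows of IFIT3 held a pair. No core was found in the windows of SAMHD1 and UBE2L6. Among the antiviral effector genes as a whole, 28 of 52 windows (53.8%) held the core.

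The overexpressed gene was examined first. TP63 (chr3:189631389-189897276, plus strand, overlapping ENSG00000227971 and MIR944) was at 1.10 and 0.817 TPM in the AsPC-1 mock libraries and at 102.3 and 169.7 TPM with TAp63. In PANC-1 it was at 0.119 and 0.0245 TPM with mock and at 323.8 and 342.2 TPM with TAp63. Every TAp63 library was far above every mock library, and both PANC-1 TAp63 libraries were above both AsPC-1 TAp63 libraries. Transcripts from the upstream start held 64.3% and 59.8% of the TP63 TPM in the AsPC-1 TAp63 libraries and 61.2% and 62.8% in those of PANC-1. Nearly all the rest was assigned to ENST00000449992, which has an internal start. Its level was 36.5 and 67.9 TPM in AsPC-1 and 125.8 and 127.2 TPM in PANC-1. ENST00000460036, ENST00000392461 and ENST00000456148, also with an internal start, were at 0 there and at 26.5 TPM or more in every deltaNp63 library. How reads were split between transcripts is unknown, so the rest cannot be read as an amount of deltaNp63. The rise on the log2(TPM + 1) scale was 6.09 in AsPC-1 and 8.28 in PANC-1, a difference of 2.20 (SE 0.357) that did not pass (limma adjusted p 0.0766). With a pseudocount of 0.1 the difference was 4.00 and passed, and it also passed with array weights, with a filter at a mean of 5 TPM and without AsPC-1 TAp63 replicate 2. The larger amount of TP63 RNA in PANC-1 stands beside every result below, and its part in them was not tested.

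The effect of TAp63 differed between the lines for 11 of the 14767 tested genes (0.0745%; limma, Benjamini-Hochberg adjusted p under 0.05). In each of the 11 the difference was positive, with TAp63 libraries below mock in AsPC-1 and close to mock in PANC-1. No gene passed in the other direction (0.0%). An unadjusted p under 0.05 was reached by 1540 genes (10.4%), of which 1256 were higher (8.51%) and 284 lower (1.92%). The 11 genes were CMPK2, OAS2, UBE2L6, SLC15A3, IFI6, IFIT3, SAMHD1, IFNL2, IFIT1, BST2 and PARP12. Their RNA with TAp63 stood at 20.5% to 53.6% of mock in AsPC-1 and at 88.6% to 116% of mock in PANC-1. The 2 groups of libraries did not overlap in AsPC-1 for any of them, where both TAp63 libraries fall below both mock libraries for 35.4% of all tested genes. In PANC-1 the groups overlapped for 8 of the 11, and IFIT1, IFIT3 and IFNL2 were the exceptions, while the groups overlap there for 57.6% of all tested genes. Their 95% intervals for the PANC-1 effect lay within -0.50 and 0.46, and those for the AsPC-1 effect all lay below -0.70.

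The 11 calls depend on the error model and on single libraries. Without the trend in the prior variance limma called 0 genes (1493 at an unadjusted p under 0.05), with the highest adjusted p among the 11 at 0.102, and after quantile normalization it called 3, all among the 11. A separate test of each transcript row called 0 (3107 at an unadjusted p under 0.05), whereas array quality weights gave 64 calls and a filter at a mean of 5 TPM gave 30, each with all 11. Leaving out either AsPC-1 mock library, AsPC-1 TAp63 replicate 1, either PANC-1 mock library or PANC-1 TAp63 replicate 2 left 1 call each, and leaving out PANC-1 TAp63 replicate 1 left 4. The call without AsPC-1 mock replicate 1, the call without PANC-1 mock replicate 2 and 1 of the 4 were genes with a negative difference. Of the 11, 1 still passed without AsPC-1 TAp63 replicate 1 and none passed in the other 6 of these fits. Without AsPC-1 TAp63 replicate 2 there were 23 calls, including 9 of the 11. Over these 17 settings of the gene fit no difference among the 11 changed sign. Omission of the trend, either change of filter, only the 8 libraries, the replicate block and array weights kept the group means. The differences could not move in those settings. Across the rest, PARP12 ran from 0.72 to 0.93 and CMPK2 from 1.89 to 2.23.

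**Figure D1:**
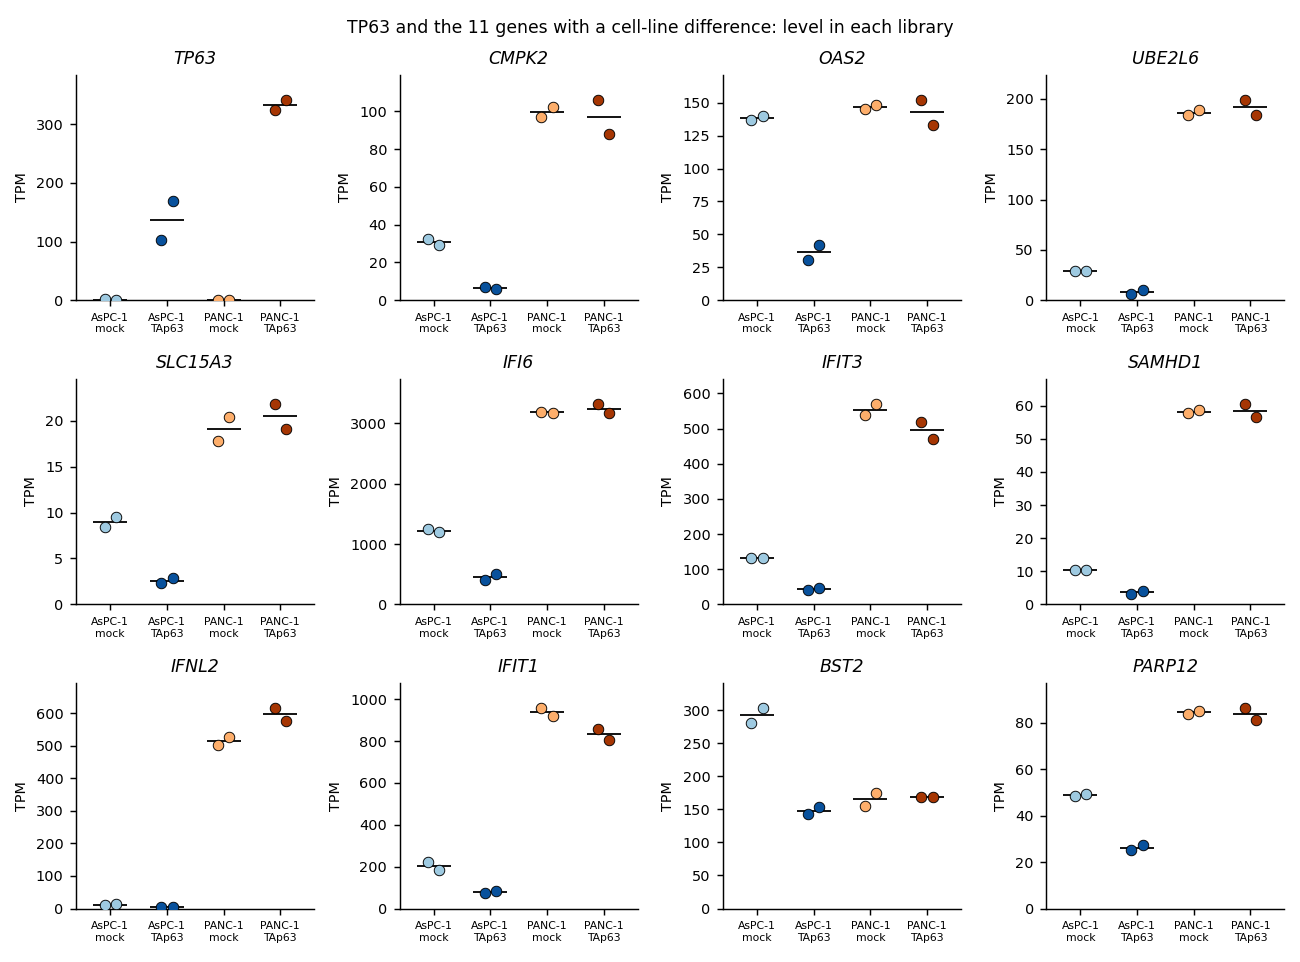
Level of TP63 and of the 11 genes in each library, in TPM on a linear axis from 0. Each point is 1 library, the bar is the mean of the 2 libraries, and each panel has its own scale. For the 11 genes the AsPC-1 TAp63 points lie below the AsPC-1 mock points, whereas in PANC-1 the points of both groups lie close together.

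Among the ligands, IFNL2 (ENSG00000183709, chr19:39268396-39270188, plus strand) encodes a type III interferon. In AsPC-1 its level was 10.9 and 13.5 TPM with mock and 4.95 and 5.39 TPM with TAp63. In PANC-1 it was at 503.3 and 527.9 TPM with mock and at 616 and 577.3 TPM with TAp63. AsPC-1 fell by 1.09 (SE 0.111) and PANC-1 lay 0.21 above mock, with TAp63 libraries above mock libraries, and the difference was 1.30 (SE 0.158, adjusted p 0.0285). IFNL2 and IFNL3 are near-identical copies, so how reads were shared between them is uncertain.

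Of the antiviral effectors, CMPK2 (ENSG00000134326, chr2:6840570-6866635, minus strand, overlapping RSAD2) encodes a mitochondrial nucleotide kinase. Its level was 32.4 and 29.4 TPM in AsPC-1 mock, 6.72 and 5.93 TPM in AsPC-1 with TAp63, 97.1 and 102.5 TPM in PANC-1 mock, and 106.3 and 88.3 TPM in PANC-1 with TAp63. The TAp63 libraries were far under mock in AsPC-1 and lay on either side of mock in PANC-1. The fall of 2.12 in AsPC-1 against -0.04 in PANC-1 gave a difference of 2.08 (SE 0.288, adjusted p 0.0431).

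OAS2 (ENSG00000111335, chr12:112978395-113011723, plus strand, overlapping ENSG00000257452) makes oligoadenylates that switch on RNase L. Its mock levels were nearly equal in the lines, at 136.7 and 140.02 TPM in AsPC-1 and at 145.5 and 147.9 TPM in PANC-1. With TAp63 the levels were 30.6 and 41.8 TPM in AsPC-1 and 152.4 and 133.1 TPM in PANC-1. The groups overlapped in PANC-1 and were widely apart in AsPC-1, and the difference was 1.88 (SE 0.239, adjusted p 0.0285).

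IFI6 (ENSG00000126709, chr1:27666064-27672212, minus strand, overlapping ENSG00000225886 and LINC02574) encodes a small membrane protein that restricts flaviviruses. It was the most abundant of the 11, at 1243 and 1195 TPM in AsPC-1 mock and at 3184 and 3180 TPM in PANC-1 mock. With TAp63 it stood at 405.9 and 501.5 TPM in AsPC-1 and at 3325 and 3167 TPM in PANC-1. PANC-1 was at 102% of mock and AsPC-1 at 37.2%, a difference of 1.46 (SE 0.178, adjusted p 0.0285).

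IFIT3 and IFIT1 are neighbours on chromosome 10 and encode partners of a complex that binds foreign RNA. IFIT3 (ENSG00000119917, chr10:89327307-89377473, plus strand, overlapping LIPA and IFIT6P) was at 131.2 and 131.02 TPM in AsPC-1 mock and at 42.03 and 46.65 TPM with TAp63, and at 537.2 and 570.4 TPM in PANC-1 mock and 518.7 and 470.4 TPM with TAp63. IFIT1 (ENSG00000185745, chr10:89392546-89406487, plus strand, overlapping LIPA) was at 222.6 and 186.2 TPM in AsPC-1 mock and at 73.6 and 82.9 TPM with TAp63, and at 957.7 and 920.1 TPM in PANC-1 mock and 857.4 and 806.7 TPM with TAp63. Both TAp63 libraries were also below both mock libraries in PANC-1, which is so for 20.4% of all tested genes, with effects of -0.16 for IFIT3 and -0.17 for IFIT1 that did not pass. The falls in AsPC-1 were 1.54 and 1.37, and the differences were 1.38 (SE 0.139) for IFIT3 and 1.20 (SE 0.144) for IFIT1, both with an adjusted p of 0.0285.

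BST2 (ENSG00000130303, chr19:17402939-17405630, minus strand) encodes tetherin, which holds budding virus at the cell surface. It was the only one of the 11 with a lower mock level in PANC-1, at 155.1 and 174.7 TPM against 280.7 and 303.2 TPM in AsPC-1. With TAp63 it was at 168.2 and 168.3 TPM in PANC-1 and at 142.6 and 152.8 TPM in AsPC-1. The fall of 0.98 in AsPC-1 brought its level under that of PANC-1, and the difference was 1.01 (SE 0.136, adjusted p 0.0392).

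PARP12 (ENSG00000059378, chr7:140023749-140062951, minus strand) encodes a mono-ADP-ribosyltransferase with antiviral activity. Its level was 48.7 and 49.6 TPM in AsPC-1 mock, 25.1 and 27.5 TPM in AsPC-1 with TAp63, 83.97 and 85.06 TPM in PANC-1 mock, and 86.4 and 81.2 TPM in PANC-1 with TAp63. Its difference of 0.86 (SE 0.11, adjusted p 0.0285) was the smallest of the 11 and had the smallest standard error.

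UBE2L6 (ENSG00000156587, chr11:57551656-57568284, minus strand) encodes the conjugating enzyme that passes ISG15 to its targets. The AsPC-1 libraries held 28.7 and 29.3 TPM with mock and 6.05 and 9.66 TPM with TAp63. In PANC-1 it was at 183.7 and 189.1 TPM with mock and at 199.4 and 184.3 TPM with TAp63. AsPC-1 fell to 27.1% of mock while PANC-1 stood at 103%, and the difference was 1.83 (SE 0.226, adjusted p 0.0285).

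SLC15A3 and SAMHD1 were on none of the interferon lists. SLC15A3 (ENSG00000110446, chr11:60937060-60952653, minus strand, overlapping TMEM132A), a lysosomal transporter of histidine and small peptides, was at 8.47 and 9.47 TPM in AsPC-1 mock and 2.34 and 2.85 TPM with TAp63, and at 17.75 and 20.4 TPM in PANC-1 mock and 21.8 and 19.1 TPM with TAp63. SAMHD1 (ENSG00000101347, chr20:36890229-36951893, minus strand, overlapping TLDC2), which degrades deoxynucleotides and so restricts retroviruses, was at 10.43 and 10.37 TPM in AsPC-1 mock and 3.20 and 3.98 TPM with TAp63, and at 57.8 and 58.6 TPM in PANC-1 mock and 60.6 and 56.5 TPM with TAp63. Their groups overlapped in PANC-1 and were apart in AsPC-1, with differences of 1.57 (SE 0.189) for SLC15A3 and 1.33 (SE 0.17) for SAMHD1, both with an adjusted p of 0.0285.

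**Figure D2:**
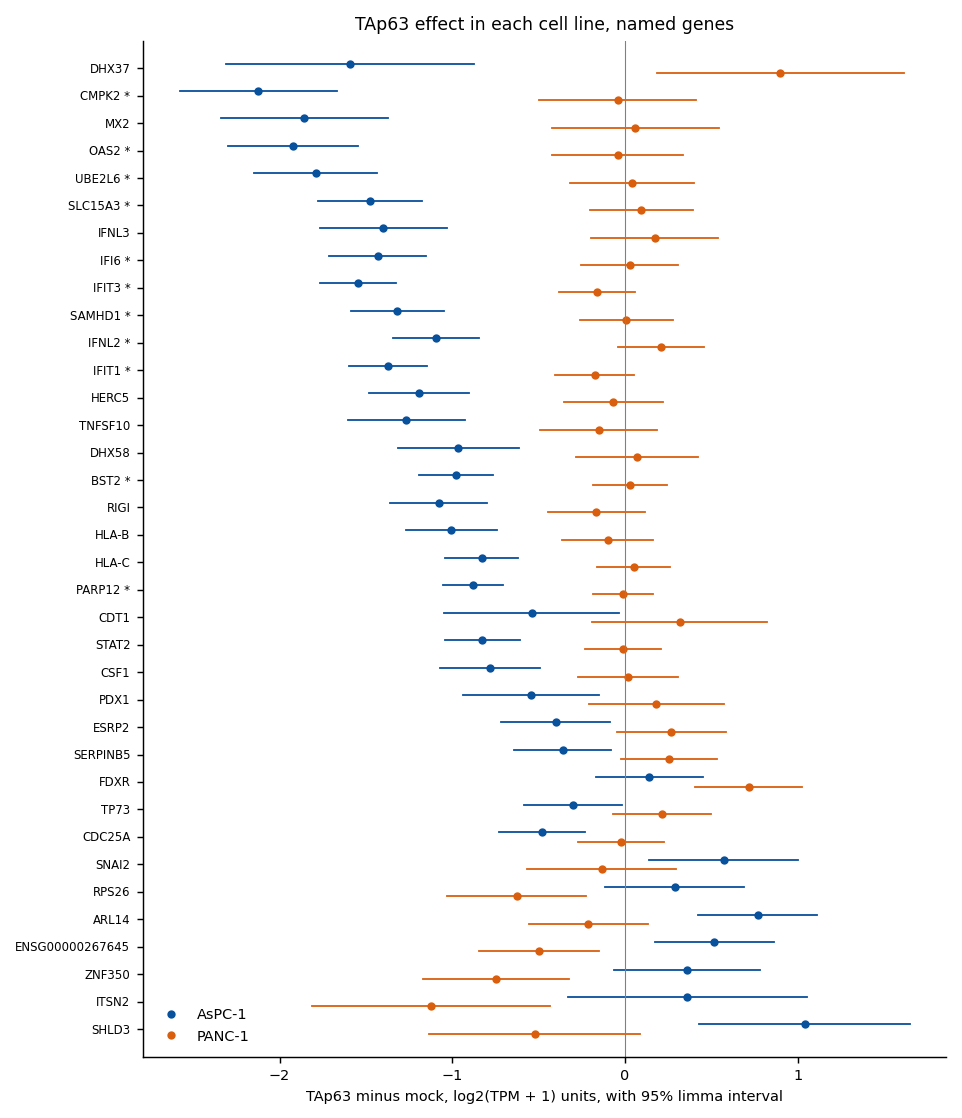
Effect of TAp63 against mock in each cell line for 36 named genes without TP63, in log2(TPM + 1) units, as point estimates with 95% limma intervals. Asterisks mark the 11 genes whose difference between the lines passed, with AsPC-1 values between -2.12 and -0.88 and PANC-1 values between -0.17 and 0.21.

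The interferon response was then read list by list in the order of the pathway. The 6 lists hold 107 genes, of which 104 passed the filter on low values. The lists were set with earlier results of these data known, so the counts describe the lists and are not independent support. ISG15 itself was not analysed here, and IFNE and IFNK were at or near 0. Of the 104, 9 passed the test of the difference and none passed in the other direction, against 0.0745% of all tested genes. At an unadjusted p under 0.05, 77 were higher in PANC-1 and 1 lower, against 8.51% and 1.92% of all tested genes. The median difference was 0.68 against 0.09 over all tested genes, from a median effect of -0.72 in AsPC-1 and -0.01 in PANC-1. In the comparison of TAp63 with mock within AsPC-1, 52 of the 104 fell, against 0.609% of all tested genes. Within PANC-1 none of the 104 passed. At an unadjusted p under 0.05, 1 was higher and 1 lower there, against 1.76% and 1.65% of all tested genes.

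**Figure D3:**
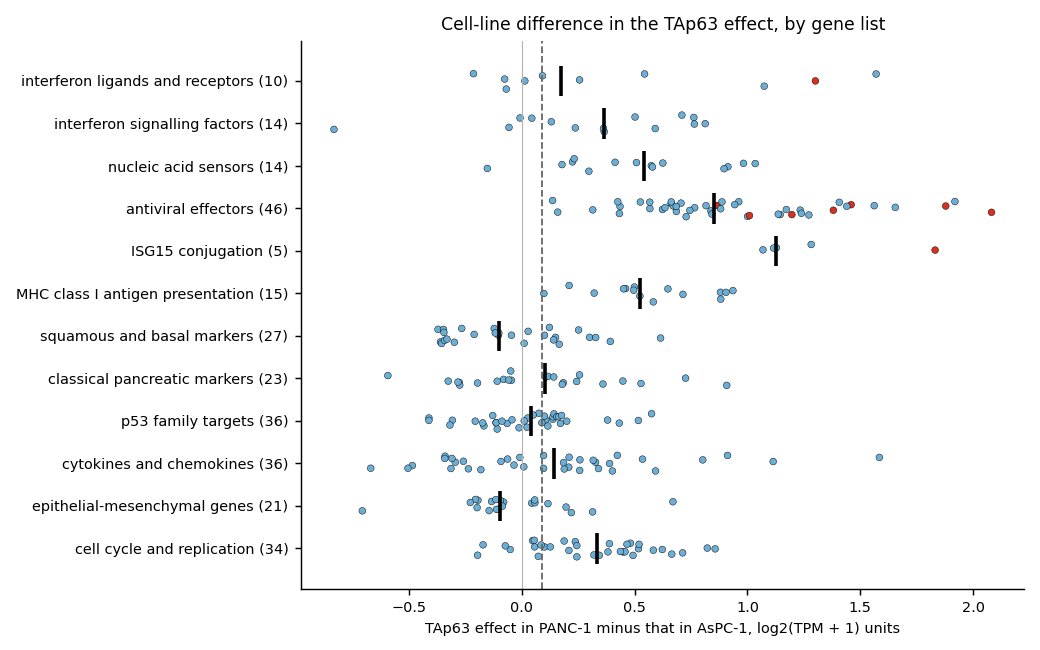
Difference between the lines in the effect of TAp63, PANC-1 minus AsPC-1 in log2(TPM + 1) units, for each tested gene of 12 lists. Red points passed, the black bar is the median of the list, the dashed line is the median of all tested genes (0.09), and the number of tested genes follows each name. The medians of the antiviral effectors (0.85) and of ISG15 conjugation (1.13) lie farthest to the right.

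Among the interferon ligands and receptors, the lambda ligands fell in AsPC-1 and no receptor passed in either line. IFNL3, the close copy of IFNL2, was at 8.12 and 8.14 TPM in AsPC-1 mock and 1.97 and 3.04 TPM with TAp63, and at 352.8 and 384.5 TPM in PANC-1 mock and 422.7 and 407.6 TPM with TAp63. It fell by 1.40 in AsPC-1, and its difference of 1.57 did not pass (adjusted p 0.0628). IFNL1, the other lambda gene tested, was at 5.99 and 7.31 TPM in AsPC-1 mock and 2.69 and 3.53 TPM with TAp63, and at 778.3 and 880.6 TPM in PANC-1 mock and 973.1 and 898.6 TPM with TAp63. All 3 lambda ligands fell in AsPC-1, and all 3 had both PANC-1 TAp63 libraries above both mock libraries, which 22.0% of all tested genes had. IFNB1, a type I interferon, was under 1 TPM in AsPC-1 and between 7.81 and 10.9 TPM in PANC-1, with overlapping groups.

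Not every tested receptor gene is given by name here, so the values below do not describe all of them. IFNLR1, the chain specific to lambda interferons, was at 5.23 and 5.03 TPM in AsPC-1 mock and 4.26 and 6.15 TPM with TAp63, and at 0.782 and 1.22 TPM in PANC-1 mock and 0.582 and 0.861 TPM with TAp63. So the ligands were more abundant in PANC-1 and this receptor chain more abundant in AsPC-1. The differences of IFNLR1 (-0.21), IL10RB (-0.07), IFNAR2 (0.01), IFNGR1 (0.09) and IFNGR2 (-0.08) were each within 1 standard error of 0. Of the 10 tested ligand and receptor genes, 1 passed, against 0.0745% of all tested genes. The median difference was 0.17, which became 0.01 without PANC-1 TAp63 replicate 2.

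Among 14 signalling factors none passed and the median difference was 0.36. At an unadjusted p under 0.05, 5 were higher (35.7%) and 1 was lower (7.14%), against 8.51% and 1.92% of all tested genes. STAT2 was at 23.2 and 24.6 TPM in AsPC-1 mock and 12.8 and 13.3 TPM with TAp63, and at 58.6 and 51.9 TPM in PANC-1 mock and 56.8 and 52.7 TPM with TAp63. STAT2, which is itself a target of the pathway it serves, fell by 0.83 in AsPC-1, and its difference of 0.81 did not pass (adjusted p 0.0885). Of the 14 factors, 2 fell in AsPC-1 by the test, against 0.609% of all tested genes, and none rose. Examples with smaller differences between the lines were IRF9 (0.04), JAK1 (-0.06) and TYK2 (0.37). JAK2, the lower gene of the list, was under 3 TPM throughout, with a difference of -0.83.

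The nucleic acid sensors gave 8 of 14 higher at an unadjusted p under 0.05 (57.1%, against 8.51% of all tested genes). None was past the adjusted threshold, and the median difference was 0.54. RIGI, a cytoplasmic sensor of viral RNA, was at 63.4 and 71.6 TPM in AsPC-1 mock and 29.7 and 33.2 TPM with TAp63, and at 166.7 and 153 TPM in PANC-1 mock and 148.6 and 136.2 TPM with TAp63. It fell by 1.08 in AsPC-1 and its difference was 0.91 (adjusted p 0.122). DHX58, which modulates RIGI, was at 22.3 and 23.1 TPM in AsPC-1 mock and 9.95 and 12.5 TPM with TAp63, and at 26.3 and 27.4 TPM in PANC-1 mock and 30.2 and 26.4 TPM with TAp63. Its difference was 1.03 (adjusted p 0.179). The adaptors downstream of the sensors moved less, with differences of 0.23 for MAVS, 0.30 for STING1 and 0.18 for TICAM1.

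The antiviral effectors made up the largest list. All 46 were tested, all 46 had a difference above 0 (from 0.14 to 2.08), 7 passed, and 43 were higher at an unadjusted p under 0.05. Over all tested genes 62.8% had a difference above 0, 0.0745% passed and 8.51% were higher at that p. In AsPC-1 both TAp63 libraries were below both mock libraries for all 46 genes, against 35.4% of all tested genes. By the test 35 of the 46 fell there, against 0.609% of all tested genes. In PANC-1 the TAp63 libraries were below mock for 18, above mock for 8 and overlapping for 20, which is 39.1%, 17.4% and 43.5% of the list, against 20.4%, 22.0% and 57.6% of all tested genes. Summed over the list, the RNA was at 7270 and 7505 TPM in AsPC-1 mock and at 3317 and 3890 TPM with TAp63. In PANC-1 the sum was 12692 and 12858 TPM with mock and 13023 and 12480 TPM with TAp63. The sum thus stood at 48.8% of mock in AsPC-1 and at 99.8% in PANC-1.

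Several effectors had large differences that did not pass. MX2, a dynamin-like restriction factor, was at 53.7 and 68.02 TPM in AsPC-1 mock and 11.8 and 21.5 TPM with TAp63, and at 62.4 and 63.95 TPM in PANC-1 mock and 69.7 and 62.4 TPM with TAp63, a difference of 1.92 (adjusted p 0.0757). Its paralog MX1 was at 227.7 and 255.5 TPM in AsPC-1 mock and 64.9 and 92.8 TPM with TAp63, and at 429.2 and 439.1 TPM in PANC-1 mock and 457.9 and 430.2 TPM with TAp63, a difference of 1.65 (adjusted p 0.0628). In both genes AsPC-1 TAp63 replicate 2 lay above replicate 1, and both lay below mock. At the low end of the list, GBP2 had a difference of 0.16 and TRIM5 of 0.14. Both are interferon-induced restriction factors, and neither fell in AsPC-1 by the test.

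The ISG15 conjugation enzymes moved together in AsPC-1. All 5 tested genes fell in AsPC-1, their differences ran from 1.07 for UBA7, the activating enzyme, to 1.83 for UBE2L6, and 1 passed. Over all tested genes 0.609% fell in AsPC-1 by the test and 0.0745% passed the test of the difference. HERC5, the main ligase, was at 19.8 and 21.9 TPM in AsPC-1 mock and 7.59 and 9.59 TPM with TAp63, and at 69.04 and 63.8 TPM in PANC-1 mock and 68.6 and 58.4 TPM with TAp63. Its difference was 1.13 (adjusted p 0.0766). USP18, which removes ISG15 and damps receptor signalling, had a difference of 1.12 (adjusted p 0.0789). The list sum stood at 40.4% of mock in AsPC-1 and at 101% in PANC-1.

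MHC class I presentation gave 15 tested genes with all 15 differences above 0, none past the threshold and a median of 0.52. At an unadjusted p under 0.05, 13 were higher (86.7%). Over all tested genes 62.8% had a difference above 0 and 8.51% were higher at that p. The list sum stood at 69.4% of mock in AsPC-1 and at 91.3% in PANC-1. In PANC-1 the sum was 9733 and 10089 TPM with mock and 9401 and 8697 TPM with TAp63. HLA-B, which presents peptides, was at 57.9 and 66 TPM in AsPC-1 mock and 27.6 and 33.4 TPM with TAp63, and at 1176 and 1235 TPM in PANC-1 mock and 1223 and 1034 TPM with TAp63. HLA-C was at 58.1 and 60.97 TPM in AsPC-1 mock and 30.2 and 36.2 TPM with TAp63, and at 349 and 383.8 TPM in PANC-1 mock and 384.3 and 373.8 TPM with TAp63. Both fell in AsPC-1, and their differences were 0.91 (adjusted p 0.108) and 0.88 (adjusted p 0.0628). The proteasome subunit gene PSMB9 also fell in AsPC-1, by 0.84, and so did B2M, by 0.54, while HLA-E (-0.24) did not pass there. HLA genes share long stretches of sequence, so the split of reads between them is uncertain.

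**Figure D4:**
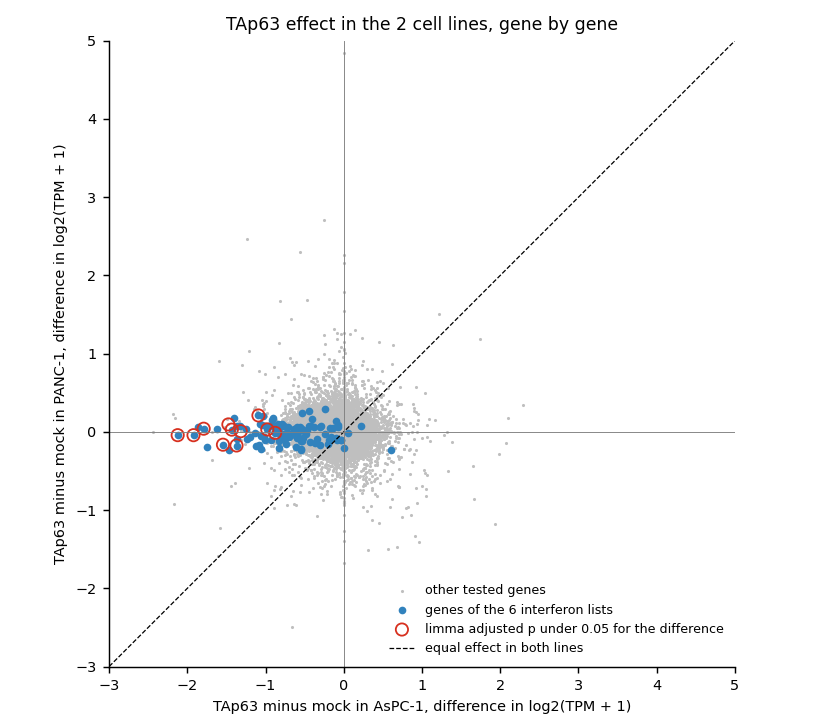
Effect of TAp63 against mock in AsPC-1 (horizontal axis) and in PANC-1 (vertical axis) for every tested gene other than TP63, in log2(TPM + 1) units. Blue points are the genes of the 6 interferon lists, red circles are the 11 genes that passed, and the dashed line marks equal effects. The blue points spread to the left of 0 along the horizontal axis, to -2.12, and stay between -0.24 and 0.30 on the vertical axis.

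The same picture was seen from the side of the single lines. TAp63 against mock in AsPC-1 gave 94 genes past the threshold (0.637%), of which 90 fell (0.609%) and 4 rose (0.0271%). With each library centred on its median there were 74, of which 63 fell and 11 rose. Leaving out AsPC-1 mock replicate 1, AsPC-1 mock replicate 2 or AsPC-1 TAp63 replicate 1 gave 43, 49 and 42, and leaving out either PANC-1 TAp63 library gave 56. The same comparison in PANC-1 gave 1 gene (0.00677%), which was TP63. The model gives each gene 1 spread for all groups. The median residual SD over mock and TAp63 libraries was 0.121 in AsPC-1 and 0.088 in PANC-1, so the shared spread can overstate the error in PANC-1. An unadjusted p under 0.05 was reached by 503 genes in PANC-1 (3.41%), and by 1326 with array quality weights. The adjusted count was 48 with no low-value filter and 1 to 6 with a library left out. For the 90 genes that fell in AsPC-1, by a median of 0.92, the PANC-1 effect ran from -0.32 to 0.21 with a median of -0.01. Of these, 49 were below 0 and 39 above 0 in PANC-1. The PANC-1 mock mean was at least 1 TPM for 84 of the 90, so most were expressed there. Across all tested genes the effects in the lines, which share no library, had a Pearson r of -0.03 and a Spearman rho of -0.12.

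Of the 90 genes, 38 were on no interferon list. They included SHFL, an antiviral inhibitor of ribosomal frameshifting (-1.01 in AsPC-1 and 0.05 in PANC-1), NMI, which binds STAT proteins (-0.79 and -0.10), TRIM69 (-0.91 and -0.18), and the transcription factor gene TFAP4 (-1.34 and 0.14), chosen after their values were seen. The 4 genes that rose in AsPC-1 were TP63, RND1, LMCD1 and NT5DC4, also named after their values were seen. LMCD1, which encodes a transcriptional cofactor with LIM domains, was at 25.2 and 29.5 TPM in AsPC-1 mock and 50.9 and 46.7 TPM with TAp63, and at 13.5 and 11.6 TPM in PANC-1 mock and 12.9 and 11.8 TPM with TAp63. RND1, a small GTPase gene, was at 10.9 and 14.2 TPM in AsPC-1 mock and 24.1 and 23.6 TPM with TAp63, and at 2.54 and 3.34 TPM in PANC-1 mock and 4.04 and 3.99 TPM with TAp63. Both PANC-1 TAp63 libraries were above mock for RND1 and not for LMCD1. Their differences between the lines, -0.53 for RND1 (adjusted p 0.453) and -0.83 for LMCD1 (adjusted p 0.122), did not pass.

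The mock levels of the interferon genes were set beside these effects. Of the 104 tested, 68 (65.4%) had a higher mean in PANC-1 mock than in AsPC-1 mock and 36 a lower one, a share near the 59.4% of all tested genes that were higher. The lambda ligands were the extreme, and IFNL1 lay 6.8 log2 units higher in PANC-1 mock. Among the 46 antiviral effectors, 31 were higher and 15 lower in PANC-1 mock. The median difference in the effect of TAp63 was 0.87 for the former and 0.82 for the latter, and all 15 of the latter were above 0. On the ISG15 conjugation list, HERC6, a relative of HERC5, also had a lower mock level in PANC-1. In AsPC-1 it was at 47.3 and 52.6 TPM with mock and at 16.8 and 24.9 TPM with TAp63. In PANC-1 it was at 3.17 and 3.14 TPM with mock and at 3.28 and 3.25 TPM with TAp63. The difference and the mock level share the mock libraries, so no correlation between them is given, and the part of the mock level in the result was not tested.

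**Figure D5:**
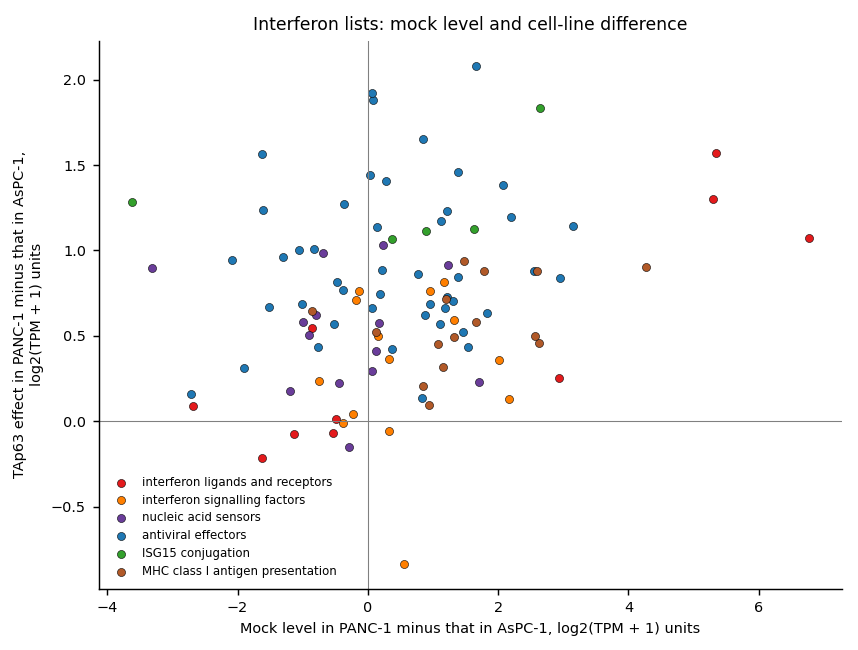
Mock level in PANC-1 minus that in AsPC-1 (horizontal axis) and the difference between the lines in the effect of TAp63 (vertical axis), both in log2(TPM + 1) units, for the 104 tested genes of the 6 interferon lists. Colours mark the lists. Points above 0 on the vertical axis lie on both sides of 0 on the horizontal axis, and the lambda ligands lie farthest right.

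The libraries with deltaNp63 allow the same difference to be formed for the other isoform, from the same mock libraries. Because the mock libraries are shared, the values are set side by side and no overlap is counted. For CMPK2 the difference was 2.08 with TAp63 and 3.07 with deltaNp63, for OAS2 1.88 and 2.71, for IFIT3 1.38 and 2.13, and for PARP12 0.86 and 1.27. The whole deltaNp63 comparison gave 86 genes past the threshold (0.582%), with 83 higher (0.562%) and 3 lower (0.0203%). The median over the antiviral effectors was 0.85 with TAp63 and 1.27 with deltaNp63. TP63 RNA was also higher with deltaNp63 than with TAp63, at 245 and 350.4 TPM in AsPC-1 and 815 and 1187 TPM in PANC-1.

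The remaining 6 lists, which cover squamous and classical identity, p53 family targets, cytokines, epithelial-mesenchymal genes and the cell cycle, held 176 tested genes. None passed the test of the difference, 16 were higher (9.09%) and 3 lower (1.70%) at an unadjusted p under 0.05, near the 8.51% and 1.92% of all tested genes, and the median was 0.08 against 0.09 over all tested genes. The pooled lists differed, with a median of 0.33 for the cell cycle and 19.4% higher at that p among the cytokines. Squamous and basal markers, the programme for which p63 is known, gave a median of -0.10 over 27 tested genes of 43, which became 0.07 without AsPC-1 mock replicate 1. Of the 27, 4 (14.8%) had a higher mock mean in PANC-1, against 59.4% of all tested genes. The median PANC-1 minus AsPC-1 mock level was -2.33. The scale understates changes of low genes, so a median near 0 does not show equal effects in the lines. SERPINB5, which encodes maspin, was at 97.6 and 88.6 TPM in AsPC-1 mock and 75.05 and 69.5 TPM with TAp63, and at most 0.348 TPM in any PANC-1 library. The AsPC-1 groups were apart, and the difference of 0.62 did not pass (adjusted p 0.347).

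Classical pancreatic markers gave a median of 0.11 over 23 tested genes of 34, which became -0.04 with each library centred on its median and 0.0086 without PANC-1 mock replicate 2. PDX1, the pancreatic progenitor factor, was at 5.79 and 5.04 TPM in AsPC-1 mock and 3.40 and 3.39 TPM with TAp63, and at 1.92 and 2.22 TPM in PANC-1 mock and 2.45 and 2.51 TPM with TAp63. For PDX1 the TAp63 libraries were below mock in AsPC-1 and above mock in PANC-1, but the difference of 0.73 did not pass (adjusted p 0.405).

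Targets of the p53 family gave a median of 0.04 over 36 tested genes of 42, which became -0.10 after centring. FDXR, the mitochondrial ferredoxin reductase and a p53 family target, was at 6.96 and 8.33 TPM in AsPC-1 mock and 7.78 and 9.29 TPM with TAp63, and at 13.8 and 14.3 TPM in PANC-1 mock and 23.2 and 24.3 TPM with TAp63. The PANC-1 groups were apart, with an effect of 0.72 (adjusted p 0.47), and the AsPC-1 groups overlapped. TP73 was under 1 TPM in AsPC-1 and between 2.71 and 3.77 TPM in PANC-1, with a difference of 0.52 (adjusted p 0.405).

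Cytokines and chemokines gave a median of 0.14 over 36 tested genes of 43, and 7 were higher (19.4%) and 1 lower (2.78%) at an unadjusted p under 0.05, against 8.51% and 1.92% of all tested genes. TNFSF10, the death ligand TRAIL and itself induced by interferon, was at 6.05 and 5.64 TPM in AsPC-1 mock and 1.73 and 1.96 TPM with TAp63, and at 11.5 and 8.92 TPM in PANC-1 mock and 8.72 and 9.36 TPM with TAp63. CSF1, the macrophage growth factor, was at 4.39 and 4.66 TPM in AsPC-1 mock and 1.83 and 2.66 TPM with TAp63, and at 83.1 and 85.9 TPM in PANC-1 mock and 88.9 and 82.6 TPM with TAp63. Both fell in AsPC-1, by 1.27 and 0.78, and both had overlapping groups in PANC-1. Their differences of 1.11 (adjusted p 0.122) and 0.80 (adjusted p 0.214) did not pass.

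Epithelial-mesenchymal genes gave a median of -0.09 over 21 tested genes of 23, which became -0.0045 without AsPC-1 mock replicate 1 and -0.23 with each library centred on its median. SNAI2, a repressor of epithelial genes, was at 205.9 and 283.1 TPM in AsPC-1 mock and 378.8 and 340.7 TPM with TAp63, and at most 0.82 TPM in PANC-1, with a difference of -0.71 (adjusted p 0.442). ESRP2, an epithelial splicing factor, was at 6.12 and 5.49 TPM in AsPC-1 mock and 3.47 and 4.93 TPM with TAp63, and at 14.1 and 12.3 TPM in PANC-1 mock and 15.4 and 16.8 TPM with TAp63, with a difference of 0.67 (adjusted p 0.37). For SNAI2 both AsPC-1 TAp63 libraries were above mock, and for ESRP2 the TAp63 libraries were below mock in AsPC-1 and above it in PANC-1.

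Cell cycle and replication genes gave a median of 0.33 over 34 genes, of which 30 were above 0 (88.2%, against 62.8% of all tested genes). At an unadjusted p under 0.05, 3 were higher (8.82%, against 8.51% of all tested genes). CDT1, a replication licensing factor, was at 25.7 and 25.5 TPM in AsPC-1 mock and 15.4 and 19.5 TPM with TAp63, and at 28.8 and 31.4 TPM in PANC-1 mock and 36.6 and 38.9 TPM with TAp63, with a difference of 0.86 (adjusted p 0.425). CDC25A, a phosphatase that drives entry into S phase, was at 5.20 and 4.77 TPM in AsPC-1 mock and 3.15 and 3.43 TPM with TAp63, and at 14.6 and 13.2 TPM in PANC-1 mock and 14.5 and 12.8 TPM with TAp63, with a difference of 0.46 (adjusted p 0.405). Neither gene passed in either line.

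Outside the lists, DHX37, an RNA helicase of ribosome assembly, had a difference of 2.49 (SE 0.454). It was the largest among the protein-coding genes reported by name with a mean of 5 TPM or more and a limma unadjusted p under 0.01. DHX37 was at 8.21 and 8.62 TPM in AsPC-1 mock and 1.25 and 3.33 TPM with TAp63, and at 9.46 and 7.55 TPM in PANC-1 mock and 12.7 and 21.7 TPM with TAp63. The TAp63 replicates were far apart in both lines, and the difference did not pass (adjusted p 0.108). In the other direction the largest values under the same rule were -1.56 for SHLD3, -1.48 for ITSN2, -1.11 for ZNF350, -1.01 for ENSG00000267645, -0.98 for ARL14 and -0.92 for RPS26, with adjusted p between 0.189 and 0.362. ARL14, which encodes a small GTPase, was at 88.4 and 101.4 TPM in AsPC-1 mock and 178.7 and 146.8 TPM with TAp63, and at 5.08 and 4.87 TPM in PANC-1 mock and 5.08 and 3.38 TPM with TAp63. SHLD3, a subunit of the shieldin complex that protects broken DNA ends, was at 4.57 and 3.45 TPM in AsPC-1 mock and 10.5 and 8.14 TPM with TAp63, and at 5.31 and 7.63 TPM in PANC-1 mock and 4.63 and 3.68 TPM with TAp63. SHLD3 overlaps TRAPPC13 and TRIM23, so the share of reads that belongs to it is uncertain. ZNF350, a zinc-finger repressor gene, was at 1.83 and 1.40 TPM in AsPC-1 mock and 2.06 and 2.66 TPM with TAp63, and at 13.01 and 10.1 TPM in PANC-1 mock and 6.93 and 5.98 TPM with TAp63. The effects in AsPC-1 and PANC-1 were 0.77 and -0.21 for ARL14, 1.04 and -0.52 for SHLD3, and 0.36 and -0.75 for ZNF350.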

How the data were processed

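Per the labels' protocols, RNA was isolated on RNeasy columns and sequencing libraries came from the TruSeq Stranded mRNA chemistry. The authors deposited 1 table of TPM values for 153329 Ensembl transcripts in 12 libraries. Quantifier, build and annotation are not given in the sources used here. TPM keeps no depth, so no counting interval was computed, and the spread between 2 replicates sets the precision.

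Transcripts were paired with genes through GENCODE v44 on hg38, which matched 139819 transcripts (91.2%) and between 89.6% and 90.5% of each library's TPM. TPM was summed per gene. The filter on low values, 1 TPM or more in 2 or more of 12 libraries, left 14767 genes. A model of 6 group means was fitted to log2(TPM + 1) with limma 3.58.1 in R 4.3.3 (trend, 6 residual degrees of freedom, two-sided), and p-values were adjusted by Benjamini-Hochberg over all tested genes, with a threshold of 0.05. The fit was tested on simulated data.

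The text names every gene that passed, the 6 largest differences each way among protein-coding genes at a mean of 5 TPM or more with an unadjusted p under 0.01, the 2 members with the smallest p in each list, and TP63 and TP73. Some genes that the rule picks, and some list members, are counted in the lists and are not reported here by name. ENSG00000267645 entered by the annotation's coding label. Further list members are given as examples, chosen after their values were seen. The comparison, the lists and this rule were set with earlier results of these data known.

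Other settings were no trend, quantile normalization, median centring, omission of the filter, a filter at a mean of 5 TPM, a pseudocount of 0.1, only the 8 libraries compared, a replicate block, array quality weights, an absolute log2 difference of at least 1, transcript rows, and leaving out each library in turn. Promoter windows came from RefSeq (GRCh38.p14). MUC5AC, CCL5, PECAM1 and ISG15 were not analysed here.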

Additional observations from a re-analysis of the deposited data

Results flagged for a closer look

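The test of the difference itself passed for 11 genes (limma, adjusted p under 0.05), each with a fall in AsPC-1 and no change past the threshold in PANC-1, where IFIT1 and IFIT3 also had both TAp63 libraries below both mock libraries. The differences, PANC-1 minus AsPC-1 in log2(TPM + 1) units, were 2.08 for CMPK2, 1.88 for OAS2, 1.83 for UBE2L6, 1.57 for SLC15A3, 1.46 for IFI6, 1.38 for IFIT3, 1.33 for SAMHD1, 1.30 for IFNL2, 1.20 for IFIT1, 1.01 for BST2 and 0.86 for PARP12. In each gene both AsPC-1 TAp63 libraries were below both mock libraries, which is so for 35.4% of all tested genes. With 2 libraries in a group, no single library could be tested for standing apart.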

How the results depend on the processing

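All 11 genes kept a positive difference under the 17 settings of the gene fit. Several of these settings keep the group means and so could not change it, and the number of calls did not hold. The count of 11 became 0 without the trend (1493 at an unadjusted p under 0.05), 3 after quantile normalization, 36 with no low-value filter (24 higher and 12 lower), 30 at a mean of at least 5 TPM, 64 with array weights (63 higher) and 0 over transcript rows (3107 unadjusted). It ranged from 1 to 23 with 1 library left out. With the replicate number as a block there were 13 calls, 6 of them among the 11. Over all tested genes, the deviations of mock and TAp63 libraries with the same number had an r of 0.099 for AsPC-1 and 0.022 for PANC-1. A low r over all genes cannot exclude a shared replicate effect in part of them. The 94 calls in AsPC-1 became 204 in a model of only the 8 libraries and 42 to 83 with 1 library left out. The 1 call in PANC-1 became 2 without the trend, 48 with no low-value filter, 7 with a pseudocount of 0.1, 5 with array weights and 1 to 6 with 1 library left out. The TP63 difference, which did not pass, passed at 2.20 with a mean of at least 5 TPM and with array weights and at 4.00 with a pseudocount of 0.1, and ranged from 1.83 to 2.56 with 1 library left out.

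Median centring moved the list medians to 0.22 for interferon signalling factors, 0.40 for sensors, 0.71 for antiviral effectors, 0.38 for MHC class I, -0.24 for squamous markers, -0.035 for classical markers, -0.10 for p53 targets, 0.000599 for cytokines and 0.19 for the cell cycle. Quantile normalization gave 0.22 for signalling factors, 0.40 for sensors, 0.75 for antiviral effectors and 0.23 for the cell cycle. A pseudocount of 0.1 gave 0.35 for ligands and receptors, 1.32 for ISG15 conjugation, -0.013 for squamous markers and 0.36 for the cell cycle. A mean of at least 5 TPM gave -0.047 for classical markers and 0.0092 for cytokines, and no filter gave 0.02 for cytokines. With 1 library left out, the medians ranged from 0.014 to 0.32 for ligands and receptors, 0.22 to 0.45 for signalling factors, 1.01 to 1.28 for ISG15 conjugation, -0.10 to 0.069 for squamous markers, 0.0086 to 0.11 for classical markers, -0.11 to -0.0045 for epithelial-mesenchymal genes and 0.25 to 0.37 for the cell cycle. The causes of these shifts were not tested. Depth is unknown, so no limit on detection can be given.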
